A study of Homo sapiens with 16 samples.

Results

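The SLC25 family holds the mitochondrial carriers, and its members were taken as the protein-coding genes whose symbol is SLC25A followed by a number, with pseudogenes and antisense genes left out. Of 60719 gene identifiers in the count tables, 48 were members. A mean of 1 CPM or more over the 16 libraries was reached by 39 of them, where CPM is a library's counts scaled to a common total with edgeR's TMM factors over all libraries. Results are given for these 39, and the other 9 (SLC25A2, SLC25A18, SLC25A21, SLC25A31, SLC25A34, SLC25A41, SLC25A47, SLC25A48 and SLC25A52) lay under 0.38 CPM on average.

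Carriers of this family are small proteins that cross the inner mitochondrial membrane several times and exchange one solute for another, so that they join the chemistry of the matrix to that of the cytosol. Their substrates include ADP and ATP, phosphate, citrate, amino acids, nucleotides, vitamins and iron. The proteins are made in the cytosol, passed through the outer membrane and set into the inner membrane by small chaperones and a carrier translocase. Myc is a transcription factor that binds the E-box CACGTG together with Max and is known for driving genes of cell growth and mitochondrial biogenesis, and TXNIP is an arrestin-like protein that restrains glucose uptake.

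The study asked how loss of TXNIP changes gene expression and how far those changes need Myc. RNA came from MDA-MB-231, a line of human breast cancer cells that lack hormone receptors and HER2 amplification (triple-negative), either unedited (parental 231) or with TXNIP deleted by CRISPR/Cas9 (231:TKO). Knockout clones were grown from single cells, so a difference between the genotypes is also a difference between a clone and its parental population. Untreated parental 231 and untreated 231:TKO cells had 2 biological replicates each. Both genotypes were also given a non-targeting siRNA (siNT) or an siRNA against Myc (siMyc) for 48 hours, with 3 biological replicates in each of the groups parental 231+siNT, parental 231+siMyc, 231:TKO+siNT and 231:TKO+siMyc.

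Library totals ran from 18953668 to 59799444 counts. Untreated parental 231 had 18953668 to 19258213 and untreated 231:TKO 28830390 to 29925768. With siRNA, parental 231 had 48203939 to 59799444 and 231:TKO 31848151 to 39527700. Read depth thus goes with genotype in both experiments, and its effect was not tested. TXNIP was at 283 CPM in both parental 231 libraries, at 12.4 to 45.5 in 231:TKO and at 6.54 to 10.2 in the siRNA-treated 231:TKO libraries, against 302 to 467 in the siRNA-treated parental 231 libraries. The log2 change of MYC with siMyc was -1.21 in 231:TKO and -0.96 in parental 231. VIM and CD44, which mark this mesenchymal-like line, lay at 1810 to 3120 and 571 to 1360 CPM. The hormone receptor genes ESR1 and PGR stayed at or below 0.305 CPM. CDH1 and EPCAM, also taken as low in this line, lay at 0.267 to 9.42 and at 12.2 to 31.3 CPM. CDH1 was at 4.13 to 5.24 CPM in parental 231 and at 0.267 to 0.378 in 231:TKO. Counting was by single reads in the untreated experiment and by read pairs in the siRNA experiment. The siRNA-treated parental 231 libraries were counted on Ensembl release 104 and all others on release 102. A pair of libraries, parental 231+siNT replicate 1 and parental 231+siMyc replicate 3, stood apart: their deviations from their group means had a correlation of 0.90 over 13448 genes, across which genes are not independent. Of the 39 carriers, 32 deviated the same way in both libraries of the pair. That count follows from the correlation that set the pair apart, and the share over all genes was not counted. Comparisons that rest on these libraries are given with and without them.

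Promoter windows (300 bases around the annotated start, most of them before it, from RefSeq, GRCh38.p14) were found for 40 of the 48 members, and the E-box CACGTG, which reads the same on both strands, was searched in each. Shown first are the windows of 4 carriers whose RNA moved with siMyc, which are SLC25A33, SLC25A12, SLC25A5 and SLC25A1. The windows of SLC25A26 and SLC25A31 follow, because they hold several E-boxes. Each is written 5′ to 3′ on the strand of its gene, with CACGTG in capitals.
SLC25A33: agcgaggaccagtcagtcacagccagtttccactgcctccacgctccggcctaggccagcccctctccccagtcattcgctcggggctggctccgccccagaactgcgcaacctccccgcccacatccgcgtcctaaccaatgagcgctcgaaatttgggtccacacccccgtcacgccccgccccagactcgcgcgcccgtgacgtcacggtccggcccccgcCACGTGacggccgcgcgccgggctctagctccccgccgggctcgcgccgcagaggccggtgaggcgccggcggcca
SLC25A12: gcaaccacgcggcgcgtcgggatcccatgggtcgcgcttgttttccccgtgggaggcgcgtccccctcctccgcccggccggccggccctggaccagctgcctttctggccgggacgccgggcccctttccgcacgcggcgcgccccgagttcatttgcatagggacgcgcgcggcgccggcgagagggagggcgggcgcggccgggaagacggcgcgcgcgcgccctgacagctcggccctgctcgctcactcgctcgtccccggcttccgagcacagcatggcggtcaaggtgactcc
SLC25A5: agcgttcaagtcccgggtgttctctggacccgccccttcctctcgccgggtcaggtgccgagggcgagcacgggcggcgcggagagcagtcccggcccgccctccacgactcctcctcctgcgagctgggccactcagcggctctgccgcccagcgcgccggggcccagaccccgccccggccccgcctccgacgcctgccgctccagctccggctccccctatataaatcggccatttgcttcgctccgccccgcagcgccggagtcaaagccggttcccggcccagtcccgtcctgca
SLC25A1: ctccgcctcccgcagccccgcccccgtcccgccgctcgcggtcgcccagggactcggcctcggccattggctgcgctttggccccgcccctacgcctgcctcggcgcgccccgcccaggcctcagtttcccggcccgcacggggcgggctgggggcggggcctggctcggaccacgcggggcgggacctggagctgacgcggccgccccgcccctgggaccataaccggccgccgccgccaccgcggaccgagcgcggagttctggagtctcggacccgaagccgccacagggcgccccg
SLC25A26: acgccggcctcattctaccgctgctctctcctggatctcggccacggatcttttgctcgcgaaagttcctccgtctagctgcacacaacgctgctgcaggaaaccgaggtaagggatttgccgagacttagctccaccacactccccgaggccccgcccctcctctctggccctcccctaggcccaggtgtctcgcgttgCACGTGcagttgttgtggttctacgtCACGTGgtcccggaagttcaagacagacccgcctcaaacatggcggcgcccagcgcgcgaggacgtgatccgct
SLC25A31: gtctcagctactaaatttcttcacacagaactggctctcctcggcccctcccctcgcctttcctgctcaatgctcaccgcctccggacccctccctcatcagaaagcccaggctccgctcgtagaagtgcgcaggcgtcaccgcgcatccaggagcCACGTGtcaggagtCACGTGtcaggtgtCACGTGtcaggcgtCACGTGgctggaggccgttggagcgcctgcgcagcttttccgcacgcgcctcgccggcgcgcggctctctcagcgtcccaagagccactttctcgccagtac
These are chr1:9539215-9539514 (+) for SLC25A33, chr2:171894195-171894494 (-) for SLC25A12, chrX:119468194-119468493 (+) for SLC25A5, chr22:19178687-19178986 (-) for SLC25A1, chr3:66220751-66221050 (+) for SLC25A26 and chr4:127730150-127730449 (+) for SLC25A31. The windows of SLC25A12 and SLC25A26 lie at a RefSeq start within the longer gene span of the count tables. The E-box of SLC25A33 begins 26 bases before the start, those of SLC25A26 begin 50 and 24 bases before it, and those of SLC25A31 begin 94, 80, 66 and 52 bases before it. The motif was in 9 of the 40 members' windows (22.5%), against 8.77% of all 27305 gene symbols with a window. Among genes at a mean of 1 CPM or more, it was in 8 of 33 members' windows (24.2%), against 12.5% of 10387 symbols. No test was made of these differences. A match describes the letters of a window, not a bound site, and a window without a match says only that these letters are not in it.

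Levels of different genes are compared per kilobase of the gene model, so a rank depends on the length of that model. It is 8896 bases for SLC25A3 against 1555 for SLC25A5 and 1553 for SLC25A6. In CPM alone SLC25A3 was the highest of the family, at 544, against 464 for SLC25A5 and 410 for SLC25A6. Per kilobase the ADP/ATP carriers SLC25A5 (298 CPM per kb) and SLC25A6 (264) led the family over the 16 libraries. Next came SLC25A3, the phosphate carrier, at 61.1, SLC25A1, the citrate carrier, at 59.3, and SLC25A39, which is needed for mitochondrial glutathione, at 53.4 CPM per kb. SLC25A24, a calcium-regulated ATP-Mg/phosphate carrier, reached 34.3, and SLC25A11, the oxoglutarate/malate carrier, 26.0 CPM per kb. At the low end of the reported members were SLC25A27 (0.726), SLC25A53 (0.536) and SLC25A45 (0.316). The heart- and muscle-type ADP/ATP carrier SLC25A4 lay at 10.1 CPM per kb, and the germ cell form SLC25A31, whose window holds the 4 E-boxes printed above, at 0.00115. All members together took 0.278% to 0.348% of a library's counts.

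**Figure D1:**
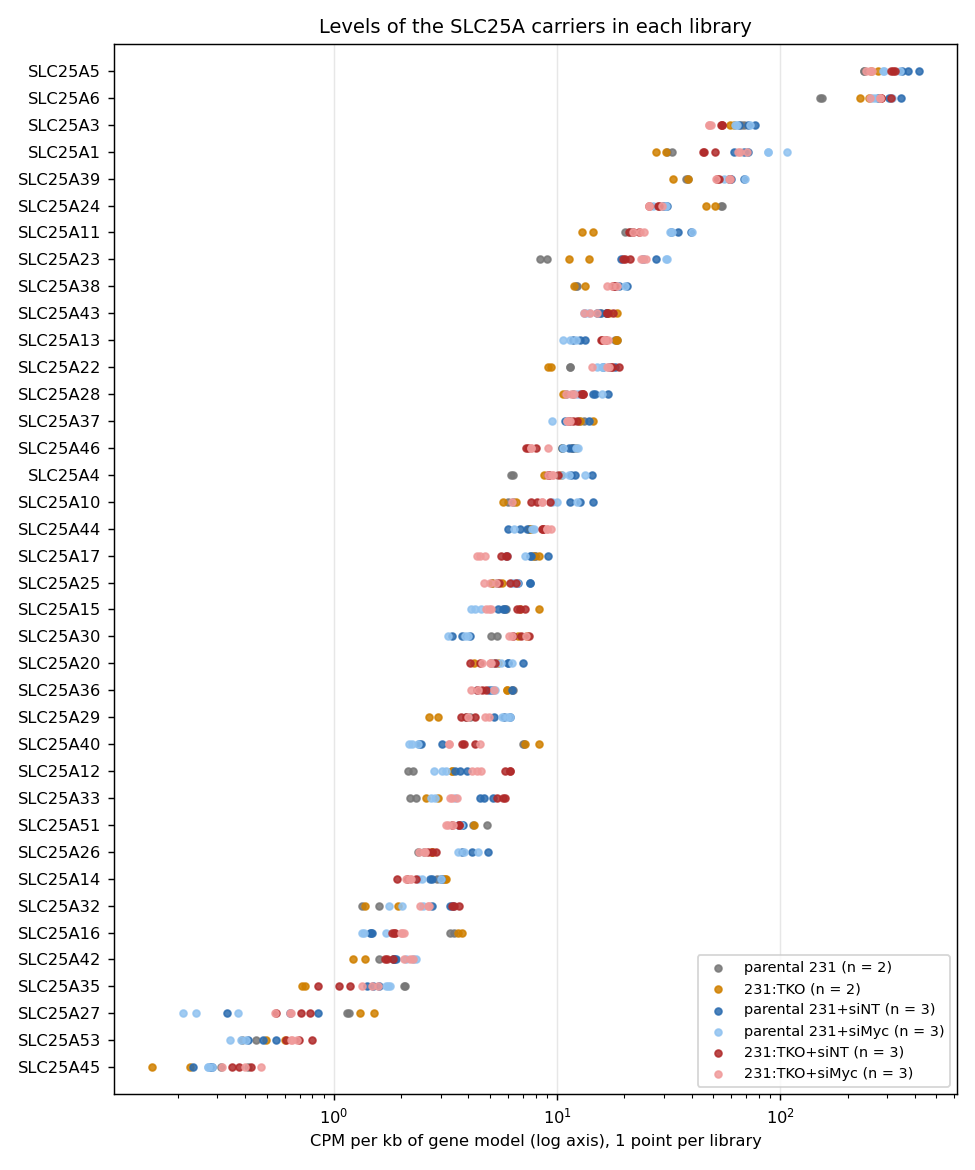
Level of 38 reported carriers in CPM per kb of gene model (log axis), with 1 point per library coloured by group. On this scale SLC25A5 and SLC25A6 stand above every other carrier in all 16 libraries, and several carriers shift between the untreated and the siRNA-treated experiments.

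The first comparison asked which carriers moved when Myc was reduced in cells without TXNIP. In 231:TKO+siMyc against 231:TKO+siNT, 13 of the 39 carriers were lower and 4 were higher by edgeR's quasi-likelihood test at an adjusted p (Benjamini-Hochberg over 22450 genes) of at most 0.05. Among all genes at 1 CPM or more, 22.1% were lower and 20.7% higher, so 33.3% of the carriers were lower against that background and 10.3% higher. The median log2 change of the carriers was -0.12, against 0.00 for genes at 1 CPM or more. By role, 4 of 9 carriers of nucleotides and cofactors, 3 of 7 of amino acids, 2 of 3 of the ADP/ATP carriers and 2 of 4 of the phosphate carriers were lower, and these shares were not tested against each other. RNA was measured in bulk, so a lower level in every cell and fewer cells with a high level cannot be told apart.

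Among the carriers of nucleotides and cofactors, SLC25A33, which carries pyrimidine nucleotides and lies on chromosome 1 from 9539465 to 9585173, went from 22.5, 22.1 and 20.7 CPM to 13.1, 12.7 and 13.8, a log2 change of -0.76 (standard error 0.07, adjusted p = 7.44e-08). This is the gene whose window holds an E-box 26 bases before the start. SLC25A32, the carrier linked to mitochondrial folate and FAD (chromosome 8 from 103398635 to 103415189), was at 13.2, 12.3 and 12.6 CPM and at 9.73, 9.64 and 8.85 with siMyc, a log2 change of -0.47 (standard error 0.08, adjusted p = 0.000152). For SLC25A17, a peroxisomal carrier of coenzyme A and related cofactors, the values were 22.4, 23.6 and 23.7 CPM against 17.9, 17.5 and 19.0, a log2 change of -0.39 (standard error 0.07, adjusted p = 0.00013). None of these 3 genes had overlapping groups. SLC25A42, which carries coenzyme A, was the member of this group that rose, from 7.88, 8.04 and 8.57 CPM to 10.2, 10.5 and 9.63 (log2 change 0.28, standard error 0.09, adjusted p = 0.0202), and it lost the call when any of 4 of the 6 libraries was left out. SLC25A16, SLC25A26, SLC25A36 and SLC25A51 did not pass the test, with log2 changes from -0.17 to 0.09.

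Of the 7 reported amino acid carriers, 3 were lower and 0 higher. SLC25A15, the ornithine carrier of the urea cycle, lies on chromosome 13 from 40789412 to 40812460. It was at 27.6, 29.97 and 28.5 CPM in 231:TKO+siNT and at 20.8, 21.1 and 20.1 in 231:TKO+siMyc, a log2 change of -0.51 (standard error 0.07, adjusted p = 4.39e-06). SLC25A12, the aspartate/glutamate carrier aralar of the malate-aspartate shuttle (chromosome 2 from 171783405 to 171999859), was at 37.4, 35.6 and 37.5 CPM and at 26.7, 25.4 and 27.8, a log2 change of -0.50 (standard error 0.06, adjusted p = 2.43e-06). Its paralogue SLC25A13, citrin, has the same transport role. Its values were 58.7, 58.3 and 61.5 CPM against 60.9, 60.3 and 62.9, a log2 change of 0.01 (standard error 0.05, adjusted p = 0.928), and the groups overlapped. The glutamate carrier SLC25A22, one of the members with an E-box in its window, changed by -0.20, and SLC25A29, SLC25A38 and SLC25A44 did not pass the test.

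Next come the carriers of ADP, ATP and phosphate. SLC25A5, the ADP/ATP carrier of growing cells (chromosome X from 119468422 to 119471396), was at 495, 507 and 485 CPM with siNT and at 400.4, 393 and 377 with siMyc, a log2 change of -0.38 (standard error 0.05, adjusted p = 2.42e-06). SLC25A6 went from 436, 487 and 438 CPM to 433, 432 and 390.3, a log2 change of -0.15 (standard error 0.05, adjusted p = 0.0484), and lost the call when any of 5 of the 6 libraries was left out. SLC25A4 was at 43.9, 48.5 and 44.1 CPM against 45.5, 43.8 and 45.9, a log2 change of -0.05 (standard error 0.06, adjusted p = 0.643), with overlapping groups. The phosphate carrier SLC25A3 had 487, 487 and 483 CPM against 427, 426 and 432, a log2 change of -0.21 (standard error 0.04, adjusted p = 0.000714). Of the ATP-Mg/phosphate carriers, SLC25A25 went from 27.1, 32.1 and 30.3 CPM to 26.3, 24.5 and 23.1 (log2 change -0.31, standard error 0.07, adjusted p = 0.0026), and SLC25A23 rose by 0.23 on the log2 scale. The little studied SLC25A43 was at 47.6, 47.3 and 50.4 CPM against 37.5, 39.8 and 42.8, a log2 change of -0.31 (standard error 0.06, adjusted p = 0.00053). The mitoferrin SLC25A28 changed by -0.21, while the other mitoferrin, SLC25A37, did not pass the test. In a single fit of the 12 siRNA-treated libraries, 10 carriers rather than 17 passed, and SLC25A3, SLC25A6, SLC25A25 and SLC25A42 were among those lost.

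The other carriers that rose had different roles. SLC25A1 exports citrate, the source of cytosolic acetyl-CoA for fatty acid synthesis, and lies on chromosome 22 from 19175581 to 19178739. It rose from 89.8, 102 and 90.8 CPM to 141, 132 and 128, a log2 change of 0.47 (standard error 0.06, adjusted p = 2.09e-06). SLC25A35, whose substrate is little studied, was at 4.16, 4.65 and 3.36 CPM with siNT and at 5.25, 5.86 and 6.24 with siMyc, a log2 change of 0.48 (standard error 0.12, adjusted p = 0.00458). It lost the call without 231:TKO+siNT replicate 3. The dicarboxylate carrier SLC25A10 and the oxoglutarate carrier SLC25A11, which share the citrate carrier's group, had log2 changes of -0.13 and 0.05 and did not pass the test. Both glutathione-linked carriers and all 3 reported relatives of the uncoupling proteins also missed the threshold.

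**Figure D2:**
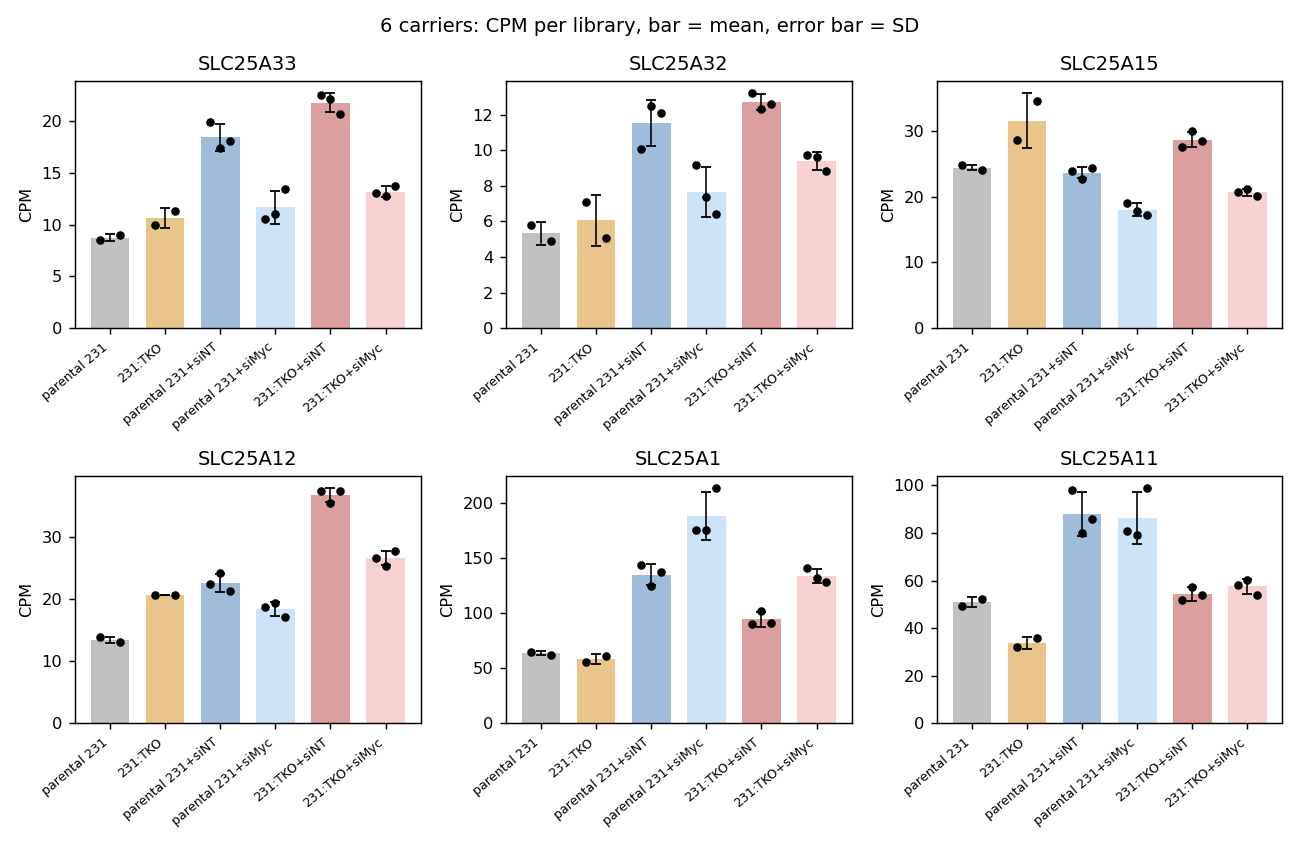
CPM of 6 carriers in each library (points), with the group mean (bar) and SD (error bar). SLC25A33, SLC25A32, SLC25A15 and SLC25A12 have their siMyc libraries below their siNT libraries in both genotypes, SLC25A1 has them above, and SLC25A11 has every 231:TKO library below the matched parental 231 libraries.

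CACGTG was in 2 of the 11 windows of carriers lower with siMyc in 231:TKO (18.2%), in none of the 3 windows of carriers that rose and in 6 of the 19 windows of carriers that did not pass the test (31.6%). These are counts of letters in windows and were not tested.

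The same question was asked of cells that keep TXNIP. With all 6 siRNA-treated parental 231 libraries, 0 of the 39 carriers passed edgeR's quasi-likelihood test in parental 231+siMyc against parental 231+siNT, where 0.618% of genes at 1 CPM or more were lower and 0.417% higher. Of the 39 carriers, 10 had an unadjusted p under 0.05 in the edgeR test, as had 3463 of all 23728 genes tested. DESeq2 called 6 carriers, and its share over all genes was not counted. The pair of libraries that stood apart decided this count: without them 11 carriers were lower and 2 higher (background 17.5% lower and 16.1% higher), and with a factor for the pair 15 were lower and 4 higher (background 21.9% and 22.8%). Both settings were chosen after the data had been seen. The median log2 change of the carriers was -0.11 with all libraries and -0.14 without the pair.

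The pyrimidine nucleotide carrier SLC25A33 was at 19.9, 17.4 and 18.1 CPM in parental 231+siNT against 10.5, 11.0 and 13.5 in parental 231+siMyc, a log2 change of -0.65 (standard error 0.13, adjusted p = 0.0735) with all libraries and -0.73 (standard error 0.08, adjusted p = 3e-05) without the pair. SLC25A32 had 10.1, 12.5 and 12.1 CPM against 9.16, 7.37 and 6.45, a log2 change of -0.58 (standard error 0.15, adjusted p = 0.133) and -0.57 (standard error 0.11, adjusted p = 0.00161). For these nucleotide and cofactor carriers every siMyc library lay below every siNT library.

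Outside that group, SLC25A15 was at 23.9, 22.7 and 24.4 CPM in parental 231+siNT and 19.1, 17.9 and 17.2 in parental 231+siMyc (log2 change -0.38, standard error 0.10, adjusted p = 0.117, and -0.35, standard error 0.07, adjusted p = 0.00283 without the pair). SLC25A12 was at 22.4, 24.2 and 21.3 CPM against 18.7, 19.4 and 17.2 (log2 change -0.29, standard error 0.10, adjusted p = 0.242, and -0.26, standard error 0.08, adjusted p = 0.0284 without the pair). SLC25A13 had 43.5, 46.7 and 49.5 CPM against 42.5, 45.1 and 39.4, a log2 change of -0.13 (standard error 0.10, adjusted p = 0.637) with all libraries and -0.14 (standard error 0.06, adjusted p = 0.116) without the pair. Aralar and ornithine carrier RNA lay lower in every siMyc library, whereas the citrin values overlapped. SLC25A5 was at 649.8, 543 and 582 CPM against 447, 452 and 535, a log2 change of -0.30 (standard error 0.12, adjusted p = 0.28) with all libraries and -0.33 (standard error 0.05, adjusted p = 0.00037) without the pair. The siNT and siMyc libraries of SLC25A5 did not overlap. SLC25A6 was at 539, 423 and 476 CPM with siNT against 411, 401 and 488 with siMyc (log2 change -0.14, standard error 0.13, adjusted p = 0.705, and -0.15, standard error 0.06, adjusted p = 0.0803 without the pair). SLC25A4 was at 69.3, 55.6 and 58.1 CPM against 50.4, 54.2 and 64.3 (log2 change -0.11, standard error 0.13, adjusted p = 0.796, and -0.12, standard error 0.06, adjusted p = 0.148 without the pair). The phosphate carrier SLC25A3 was at 687, 579.5 and 637 CPM against 557, 569 and 650.4 (log2 change -0.09, standard error 0.11, adjusted p = 0.79, and -0.11, standard error 0.05, adjusted p = 0.167 without the pair). In these 3 the groups overlapped, and the highest library of each group was one of the pair. With a factor for the pair, SLC25A13 at -0.13 (adjusted p = 0.0435) and SLC25A6 at -0.14 (adjusted p = 0.015) passed, whereas SLC25A3 and SLC25A4 did not. SLC25A1 was at 143, 124 and 137 CPM with siNT and 175, 175 and 214 with siMyc, a log2 change of 0.49 (standard error 0.12, adjusted p = 0.102) with all libraries and 0.42 (standard error 0.05, adjusted p = 6.02e-05) without the pair, so that every siMyc library lay higher.

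A relative of the uncoupling proteins, SLC25A27, had the most negative value in parental 231, with 2.07, 2.77 and 1.09 CPM in siNT and 0.791, 0.692 and 1.22 in siMyc (log2 change -1.13, standard error 0.36, adjusted p = 0.199, and -1.38, standard error 0.41, adjusted p = 0.0465 without the pair). Its groups overlapped and its level is near the lowest of the reported members. In 231:TKO its change with siMyc was -0.21 (standard error 0.16, adjusted p = 0.398).

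**Figure D3:**
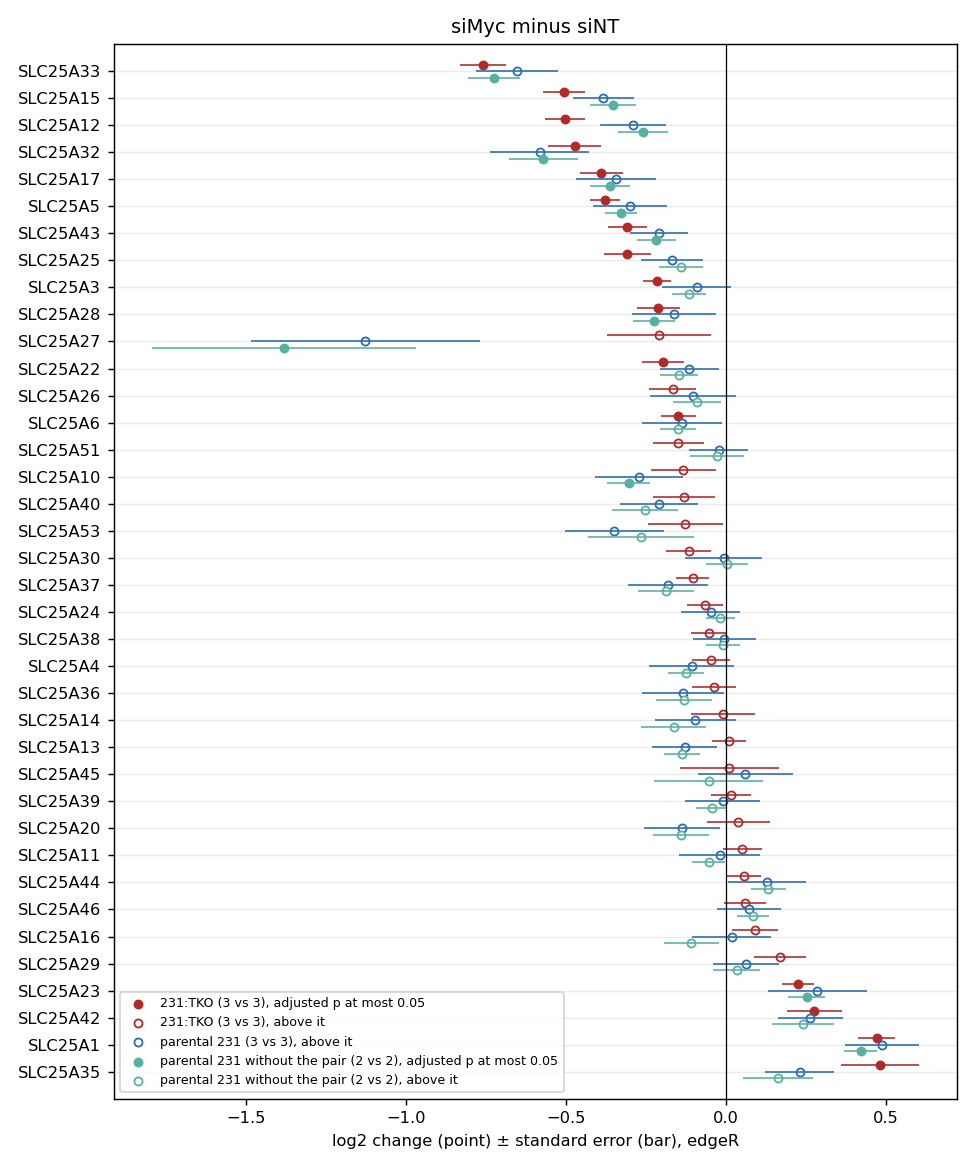
Log2 change with siMyc (siMyc minus siNT, edgeR) of 38 reported carriers, with its standard error as the bar, in 231:TKO, in parental 231 with all libraries and in parental 231 without the pair that stood apart. Filled points have an adjusted p of at most 0.05: of the 38 carriers drawn, 16 are filled in 231:TKO, 0 in parental 231 with all libraries and 12 without the pair.

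Whether the carriers responded to siMyc differently in the 2 genotypes was tested as a contrast in 1 fit of the 12 siRNA-treated libraries. In this test 0 of the 39 carriers passed edgeR's quasi-likelihood test, in which 0% of all 25812 genes passed, and DESeq2 also called 0 carriers. SLC25A27 was the 1 carrier with an unadjusted p under 0.05 in the edgeR test, against 1039 of the 25812 genes. Without the pair, or with a factor for it, the carriers called remained 0. Of genes at 1 CPM or more, 0.164% had a higher and 0.283% a lower difference without the pair. With the factor these shares were 0.692% and 0.320%. At shares this small, 0 of 39 says little about the carriers. The difference of the log2 changes (231:TKO minus parental 231) was -0.08 (standard error 0.15) for SLC25A33, 0.14 (standard error 0.18) for SLC25A32 and -0.18 (standard error 0.12) for SLC25A12. It was 0.01 (standard error 0.13) for SLC25A1, -0.10 (standard error 0.12) for SLC25A3, -0.05 (standard error 0.12) for SLC25A5, 0.02 (standard error 0.14) for SLC25A6, 0.09 (standard error 0.15) for SLC25A4 and 0.17 (standard error 0.12) for SLC25A13. With standard errors of this size, a difference of about the size of the changes of SLC25A3 or SLC25A6 was not detectable, so that a carrier past the threshold in 231:TKO and not in parental 231 is not shown to differ between them.

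The makeup of the ADP/ATP carriers was also compared. Of the CPM per kb of SLC25A4, SLC25A5, SLC25A6 and SLC25A31 together, SLC25A6 took 46.2%, 48.2% and 46.8% in the 231:TKO+siNT libraries and 51.1%, 51.5% and 49.9% in 231:TKO+siMyc. In parental 231 the share was 44.5%, 43.0% and 44.2% with siNT and 47.1%, 46.1% and 46.8% with siMyc. Untreated parental 231 libraries had 38.1% and 38.9%, and untreated 231:TKO 46.2% and 46.8%. In each of the 5 comparisons the groups did not overlap, and the SLC25A6 share was the higher with siMyc and in 231:TKO. The two-sided exact permutation p was 0.1 with 3 libraries a group and 0.3333 with 2, which are the smallest these designs allow (0.125 and 0.3333 after Benjamini-Hochberg adjustment over the 5). The share of SLC25A5 lay the other way, from 59.9% ± 0.51 (SD, n = 2) in parental 231 to 51.6% ± 0.51 in 231:TKO and from 51.4% ± 1.1 (SD, n = 3) to 47.4% ± 0.72 with siMyc in 231:TKO. SLC25A4 held 1.50% to 2.01% of the total in the siRNA-treated libraries. Reads assigned to pseudogene copies were at most 0.0962% of the counts of their gene for SLC25A5 and 0.0119% for SLC25A6.

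**Figure D4:**
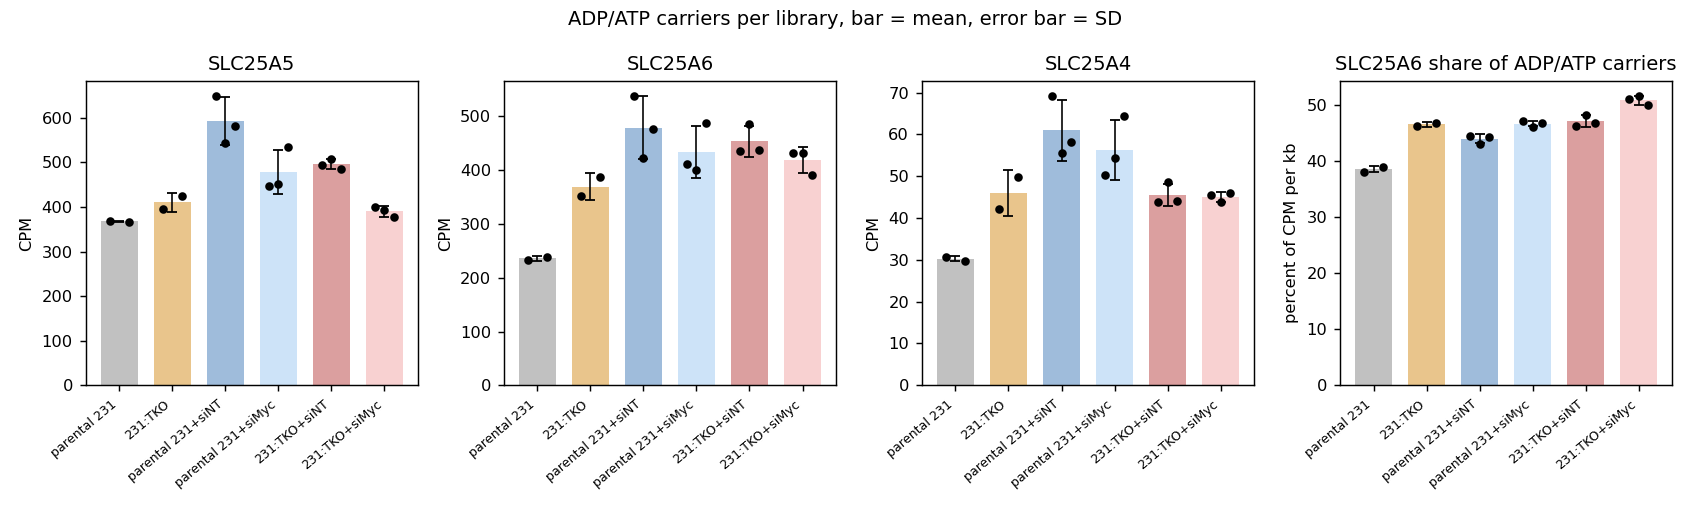
CPM of SLC25A5, SLC25A6 and SLC25A4 in each library and, in the last panel, the SLC25A6 share of the ADP/ATP carriers in percent of CPM per kb, with points for libraries, bars for group means and error bars for SD. The mean share of SLC25A6 is 38.5% in untreated parental 231 and 46.5% in untreated 231:TKO. It is 43.9% with siNT and 46.6% with siMyc in parental 231, and 47.1% and 50.8% in 231:TKO.

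The next question was how the carriers differed between 231:TKO and parental 231 cells without any siRNA. Here 4 of the 39 carriers were higher and 3 lower by edgeR's quasi-likelihood test, shares of 10.3% and 7.69% against 7.97% and 5.46% of genes at 1 CPM or more, and 5.43% and 4.18% of all genes tested. The median log2 change of the carriers was 0.03. These calls rest on 2 libraries a group: none was left when parental 231 replicate 1 or replicate 2 was left out, while 16 and 18 carriers passed without 231:TKO replicate 1 and replicate 2. SLC25A21, at under 1 CPM, was also lower.

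The reported ADP/ATP carriers other than SLC25A5 were both higher in 231:TKO. SLC25A6 was at 233 and 239 CPM in parental 231 and 351 and 387 in 231:TKO, a log2 change of 0.64 (standard error 0.07, adjusted p = 0.0133). SLC25A4 was at 30.7 and 29.8 against 42.0 and 49.9 CPM, a log2 change of 0.60 (standard error 0.11, adjusted p = 0.0354). SLC25A5 was at 368 and 367 against 396 and 425 CPM, a log2 change of 0.15 (standard error 0.06, adjusted p = 0.225), and did not pass. The aspartate/glutamate carrier SLC25A12 had 13.8 and 13.1 CPM against 20.7 and 20.6 (log2 change 0.61, standard error 0.10, adjusted p = 0.0274), while its paralogue SLC25A13 had 67.2 and 69.0 against 68.0 and 68.7 (log2 change 0.00, standard error 0.06, adjusted p = 0.989) with overlapping groups. SLC25A30, a relative of the uncoupling proteins, was at 36.5 and 34.3 CPM against 45.3 and 49.6, a log2 change of 0.42 (standard error 0.09, adjusted p = 0.049).

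Lower in 231:TKO were SLC25A35, SLC25A11 and SLC25A29. SLC25A35 was at 8.19 and 8.16 CPM in parental 231 and 2.83 and 2.92 in 231:TKO, a log2 change of -1.51 (standard error 0.16, adjusted p = 0.0117), the furthest of any reported carrier in this comparison. SLC25A11, the oxoglutarate/malate carrier that works with aralar in the malate-aspartate shuttle, was at 49.4 and 52.4 CPM against 32.0 and 35.7 (log2 change -0.60, standard error 0.09, adjusted p = 0.0229). SLC25A29, a carrier of basic amino acids, was at 30.4 and 29.1 CPM against 21.8 and 19.9 (log2 change -0.52, standard error 0.09, adjusted p = 0.0349). In these 3 genes, as in the 4 higher ones, the groups did not overlap. With 2 libraries a group this says little. The pyrimidine and folate carriers that were lower with siMyc did not pass here. SLC25A33 was at 8.49 and 9.01 CPM in parental 231 against 9.94 and 11.3 in 231:TKO (0.27 on the log2 scale). SLC25A32 was at 5.80 and 4.88 CPM against 7.07 and 5.04 (0.18). Carriers of citrate and phosphate, which follow the ADP/ATP carriers in CPM per kb, also missed the threshold. SLC25A1 was at 65.2 and 62.3 CPM in parental 231 against 55.2 and 61.3 in 231:TKO (-0.14). SLC25A3 was at 609 and 594 CPM against 549 and 526 (-0.17).

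The same genotypes were compared again under siNT, in other libraries. In this comparison genotype cannot be told apart from read depth or from the annotation release on which the libraries were counted. By edgeR's quasi-likelihood test, 10 of the 39 carriers were higher and 13 lower in 231:TKO+siNT than in parental 231+siNT, shares of 25.6% and 33.3% against 22.4% and 28.2% of genes at 1 CPM or more. Without parental 231+siNT replicate 1, the library that stood apart, 11 were higher and 16 lower, and without 231:TKO+siNT replicate 1 the total was 14 rather than 23. The median log2 change was -0.10, against -0.03 for genes at 1 CPM or more. Without that parental library the changes of SLC25A3 and SLC25A4 were -0.27 each (adjusted p = 0.000135 and 0.000275), and every call on SLC25A1, SLC25A11, SLC25A12, SLC25A13, SLC25A30 and SLC25A33 was kept. Leaving out each of the 6 libraries in turn lost the call of SLC25A53 in 1 fit and those of SLC25A45, SLC25A35, SLC25A3 and SLC25A4 in 2 fits each. The calls of SLC25A14, SLC25A15, SLC25A16, SLC25A17, SLC25A20 and SLC25A44 were not followed one by one in these fits.

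SLC25A30 had the largest increase, from 23.0, 25.5 and 27.5 CPM in parental 231+siNT to 47.0, 43.1 and 51.0 in 231:TKO+siNT, a log2 change of 0.93 (standard error 0.11, adjusted p = 5.01e-05). SLC25A12 followed, at 22.4, 24.2 and 21.3 against 37.4, 35.6 and 37.5 CPM, a log2 change of 0.74 (standard error 0.09, adjusted p = 0.000108). Both were also higher in untreated 231:TKO. SLC25A40, which is linked to glutathione like SLC25A39, was at 12.2, 15.4 and 12.5 CPM against 19.4, 19.0 and 21.7 (log2 change 0.62, standard error 0.12, adjusted p = 0.00181). SLC25A53 was at 3.76, 2.81 and 3.27 CPM against 5.45, 4.16 and 4.74 (log2 change 0.58, standard error 0.16, adjusted p = 0.0133). SLC25A45 was at 1.84, 2.23 and 2.18 CPM against 3.32, 2.94 and 2.74 (log2 change 0.56, standard error 0.16, adjusted p = 0.0185). SLC25A53 and SLC25A45 are little studied and low, and for SLC25A53 a pseudogene copy drew reads equal to 5.37% of the gene's counts. Citrin, SLC25A13, rose by 0.39 (adjusted p = 0.00566), and SLC25A15 by 0.31. SLC25A33 rose by 0.28 (adjusted p = 0.0428), a call that was lost when any of 5 of the 6 libraries was left out and with the replicate number as a block (adjusted p = 0.0735). SLC25A44, a carrier of branched-chain amino acids, rose by 0.39 and SLC25A16, linked to coenzyme A, by 0.38.

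SLC25A11 was the lowest relative to parental cells, at 98.2, 80.02 and 85.7 CPM in parental 231+siNT and 51.7, 57.4 and 53.8 in 231:TKO+siNT, a log2 change of -0.66 (standard error 0.10, adjusted p = 0.000357). Its neighbour in function SLC25A10, the dicarboxylate carrier, was at 37.9, 29.7 and 33.1 CPM against 21.2, 24.4 and 19.97 (log2 change -0.58, standard error 0.12, adjusted p = 0.00223). The citrate carrier SLC25A1, the third reported member of that group, changed by -0.48 (standard error 0.09, adjusted p = 0.00193). All reported carriers of citrate, dicarboxylates and oxoacids were lower under siNT. SLC25A26, which carries S-adenosylmethionine, the methyl donor, was at 28.5, 24.2 and 21.9 CPM against 15.3, 16.7 and 16.1 (log2 change -0.60, standard error 0.11, adjusted p = 0.00163). SLC25A46, an outer membrane member linked to mitochondrial fission, was at 86.6, 97.5 and 92.8 CPM against 61.4, 59.9 and 66.7 (log2 change -0.52, standard error 0.09, adjusted p = 0.00102).

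SLC25A35 was at 5.57, 6.29 and 5.90 CPM in parental 231+siNT and 4.16, 4.65 and 3.36 in 231:TKO+siNT (log2 change -0.51, standard error 0.14, adjusted p = 0.0167), and SLC25A29 at 43.0, 45.7 and 38.6 against 29.2, 31.8 and 27.5 (log2 change -0.49, standard error 0.10, adjusted p = 0.00304). Together with SLC25A11 these are the carriers that were lower in both experiments. The remaining lower carriers, SLC25A17, SLC25A20, SLC25A4, SLC25A14 and SLC25A3, changed by -0.44 to -0.35, and SLC25A3 was at 687, 579.5 and 637 CPM in parental 231+siNT and 487, 487 and 483 in 231:TKO+siNT. SLC25A5, SLC25A6 and SLC25A32 did not pass (-0.22, -0.04 and 0.18).

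**Figure D5:**
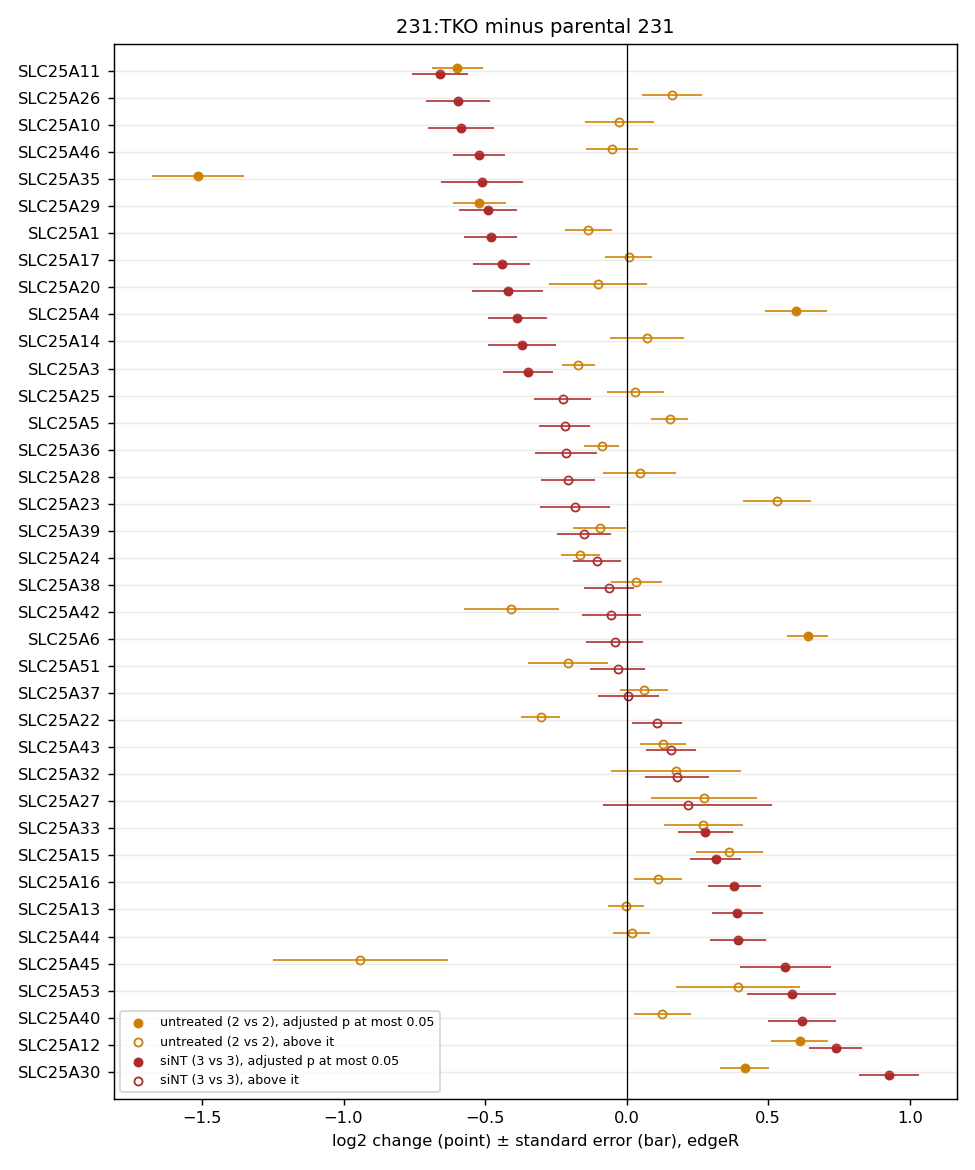
Log2 change (231:TKO minus parental 231, edgeR) of 38 reported carriers, with its standard error as the bar, in the untreated cells and under siNT. Filled points have an adjusted p of at most 0.05: SLC25A12 and SLC25A30 are filled above 0 in both and SLC25A11, SLC25A29 and SLC25A35 below 0 in both, while SLC25A4 is filled on opposite sides.

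Under siMyc the genotypes differed in 21 carriers by edgeR's quasi-likelihood test, 9 higher and 12 lower in 231:TKO+siMyc (23.1% and 30.8%, against 25.3% and 29.4% of genes at 1 CPM or more). As under siNT, genotype cannot be told apart from read depth or the annotation release in this comparison. Without parental 231+siMyc replicate 3, which stood apart, 10 were higher and 15 lower, SLC25A33 passed at 0.30 (adjusted p = 0.00447), and SLC25A5 and SLC25A4 were at -0.20 (adjusted p = 0.00214) and -0.21 (adjusted p = 0.00768). Farthest from 0 lay SLC25A27, at 0.791, 0.692 and 1.22 CPM in parental 231+siMyc against 2.10, 1.78 and 2.09 in 231:TKO+siMyc, a log2 change of 1.15 (standard error 0.22, adjusted p = 0.00108).

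Of the other carriers higher in 231:TKO+siMyc, SLC25A30 was at 26.3, 27.1 and 21.9 CPM in parental 231+siMyc against 42.6, 41.2 and 49.4 (log2 change 0.83). SLC25A53 was at 2.34, 2.75 and 2.60 CPM against 4.40, 4.43 and 4.65 (log2 change 0.82). SLC25A40 was at 12.1, 11.4 and 11.1 CPM against 16.6, 16.7 and 22.9 (log2 change 0.71). All 3 were also higher under siNT. The aspartate/glutamate carriers were higher together: citrin, SLC25A13, was at 42.5, 45.1 and 39.4 CPM against 60.9, 60.3 and 62.9 (log2 change 0.54), and aralar, SLC25A12, changed by 0.53. SLC25A45 (0.52), SLC25A16 (0.46) and SLC25A44 (0.33) were higher too, and SLC25A45 lost the call when any of 4 of the 6 libraries was left out.

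On the lower side, SLC25A26 was at 22.4, 20.9 and 25.8 CPM in parental 231+siMyc against 14.97, 14.8 and 14.1 in 231:TKO+siMyc (log2 change -0.65). SLC25A11 was at 81.0, 79.0 and 98.9 CPM against 58.2, 60.4 and 54.1 (log2 change -0.58). Carriers of S-adenosylmethionine and of oxoglutarate and malate, these were lower under siNT as well. SLC25A46 was at 100.3, 102 and 87.5 CPM against 62.8, 62.9 and 75.0 (log2 change -0.53). SLC25A17 was at 23.8, 23.5 and 28.6 CPM against 17.9, 17.5 and 19.0 (log2 change -0.48). In these 7 genes (SLC25A30, SLC25A53, SLC25A40, SLC25A26, SLC25A11, SLC25A46 and SLC25A17) the genotypes did not overlap. The citrate carrier SLC25A1 changed by -0.49 and the phosphate carrier SLC25A3 by -0.46. SLC25A10 (-0.44), SLC25A29 (-0.37), SLC25A25 (-0.35), SLC25A5 (-0.29) and SLC25A4 (-0.32) were lower too, the last 2 losing the call when any of 3 of the 6 libraries was left out. The gene model of SLC25A25 is 4936 bases in release 102 and 5926 in release 104, on which the parental 231 libraries were counted. Its call may carry that difference, which was not tested. Of the 48 members, 47 have the same model length in both releases. SLC25A6 (-0.05), SLC25A32 (0.30) and SLC25A33 (0.18) did not pass. SLC25A21, SLC25A18 and SLC25A2, all under 1 CPM on average, also passed the test.

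Whether the genotype difference itself changed between the untreated and the siNT experiments was tested in 1 fit of those 10 libraries. Of the 39 carriers, 3 had a higher and 5 a lower difference under siNT by edgeR's quasi-likelihood test (7.69% and 12.8%, against 10.3% and 13.9% of genes at 1 CPM or more, and 6.20% and 7.91% of all genes tested). Without parental 231+siNT replicate 1 the total was 14 rather than 8, and without parental 231 replicate 1 or replicate 2 it was 2. The experiments also differ in read layout and siRNA treatment, which cannot be told apart here. SLC25A4 went from 0.60 untreated to -0.39 under siNT, a difference of -0.99 (standard error 0.17, adjusted p = 0.00128), and it is the carrier that passed the test in opposite directions. SLC25A6 went from 0.64 to -0.04 (log2 change -0.69, standard error 0.16, adjusted p = 0.00976), and SLC25A35 from -1.51 to -0.51 (log2 change 1.00, standard error 0.24, adjusted p = 0.0123). SLC25A45 went from -0.94 to 0.56 (log2 change 1.50, standard error 0.33, adjusted p = 0.00656). For SLC25A23 the difference was -0.71, for SLC25A26 -0.76, for SLC25A46 -0.47 and for SLC25A30 0.51. SLC25A12 (0.12, adjusted p = 0.679), SLC25A11 (-0.07, adjusted p = 0.878) and SLC25A29 (0.03, adjusted p = 0.992) did not pass.

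Neighbouring genes moved with several of these carriers. In the window of chromosome 2 from 160 to 180 Mb that holds SLC25A12, the median log2 difference of 80 other genes from parental cells was 0.43 and 0.47 in the untreated 231:TKO libraries and 0.23 to 0.27 under siNT. In the last stretch of chromosome 4, from 180 Mb, which holds SLC25A4, the median of 27 other genes was 0.35 and 0.42 untreated and -0.17 to -0.10 under siNT, opposite signs like those of SLC25A4 itself. SLC25A11 and SLC25A35 share the first 20 Mb of chromosome 17, where 223 other genes had a median of -0.33 and -0.30 untreated and -0.11 to -0.05 under siNT. Around SLC25A6, 63 genes lay at 0.24 and 0.32 untreated and at 0.28 to 0.33 under siNT. The window of SLC25A3 on chromosome 12 (80 to 100 Mb, 45 other genes) lay at 0.02 and 0.06 untreated and at -0.53 to -0.42 under siNT, and that of SLC25A15 and SLC25A30 on chromosome 13 (40 to 60 Mb, 67 other genes) at 0.02 and 0.03 untreated and 0.28 to 0.30 under siNT.

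With each library's counts offset by these window medians, 4 rather than 7 carriers passed in the untreated comparison. SLC25A6 (0.35, adjusted p = 0.0622), SLC25A12 (0.16, adjusted p = 0.392), SLC25A4 (0.21, adjusted p = 0.348) and SLC25A11 (-0.28, adjusted p = 0.133) no longer did. SLC25A35 (-1.19, adjusted p = 0.0143), SLC25A29 (-0.47, adjusted p = 0.0335) and SLC25A30 (0.38, adjusted p = 0.0469) kept their calls. The fourth was the ATP-Mg/phosphate carrier SLC25A23, named after its values were seen, which without the offsets had a log2 change of 0.53 (standard error 0.12, adjusted p = 0.0593). Under siNT, SLC25A12 (0.48, adjusted p = 0.00155), SLC25A30 (0.63, adjusted p = 0.000821), SLC25A11 (-0.59, adjusted p = 0.000816) and SLC25A26 (-0.58, adjusted p = 0.00278) kept their calls, SLC25A10 (-0.17, adjusted p = 0.215), SLC25A29 (-0.10, adjusted p = 0.481) and SLC25A4 (-0.23, adjusted p = 0.125) lost theirs, and SLC25A3 turned to 0.11, adjusted p = 0.44. SLC25A6, which did not pass under siNT without the offsets, passed with them at -0.34, adjusted p = 0.0296. Offsets were not fitted for the genotype comparison under siMyc.

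Other genes of mitochondrial transport were set beside the carriers. Of 10 genes that pass carriers to the inner membrane, 7 were lower and 0 higher with siMyc in 231:TKO, with a median log2 change of -0.29, where 22.1% of genes at 1 CPM or more were lower and 20.7% higher. TIMM8A, a small chaperone of the intermembrane space, changed by -0.62 (adjusted p = 9.64e-07), and TOMM70, the outer membrane receptor for carriers, by -0.40 (adjusted p = 1.92e-05). TIMM22, the core of the carrier translocase, missed the threshold at -0.17 (adjusted p = 0.0556), and TIMM10B and TIMM29 also did not pass. In parental 231 with all libraries the median of the 10 was -0.24. In untreated 231:TKO 3 of the 10 were higher and 0 lower, and under siNT 3 were higher and 2 lower, against a background of 7.97% higher and 5.46% lower untreated and of 22.4% and 28.2% under siNT. Of 26 reported genes among the channels, sideroflexins, calcium uptake and other transport genes of the mitochondrion, 10 were lower and 4 higher with siMyc in 231:TKO, and their median was -0.02. The serine carrier SFXN1 changed by -0.31 and the outer membrane channel VDAC1 by -0.25, whereas UCP2 rose by 0.19. In untreated 231:TKO 2 of the 26 were higher and 1 lower, and under siNT 4 were higher and 7 lower, against the same backgrounds.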

How the data were processed

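The deposited files hold raw counts per Ensembl gene, which the authors made by aligning RNA-seq reads to GRCh38 (hg38) with STAR and counting them with featureCounts, reverse-stranded and assigned by the largest overlap. The untreated libraries were single-read and the siRNA-treated ones paired-end. The 16 libraries were grouped by their labels, and symbols were taken from a gene name table, which matched 58705 of 60719 identifiers. Each comparison was fitted in its own libraries with edgeR 4.0.16 (R 4.3.3) on genes with more than 5 counts in sum, with TMM scaling and the robust quasi-likelihood test, and p-values were adjusted by Benjamini-Hochberg over all genes tested. Differences of differences were contrasts in 1 fit. Standard errors were taken from the log2 change and the F value. The scripts were tested on simulated data.

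The members, the groups of carriers by role and the lists of transport and carrier insertion genes were chosen with earlier results of these data known. In each comparison the text names every reported carrier past the threshold (per library for up to 12 of the largest changes) and, whatever the test gave, SLC25A1, SLC25A3, SLC25A4, SLC25A5, SLC25A6, SLC25A12, SLC25A13, SLC25A32 and SLC25A33. The values of 1 carrier, which is part of every count and median, are not reported here. Promoter windows came from RefSeq. Regional shifts were medians of log2 (CPM + 0.5) differences from the mean of the matched parental libraries, over at least 15 other genes in windows of 20 Mb. Alternatives were DESeq2 1.42.0, DESeq2 size factors, other filters, an adjusted p of at most 0.01, the replicate number as a block, each library left out, 1 fit of the 12 siRNA-treated libraries and regional offsets. Leaving out the pair of parental 231 libraries and a factor for it were alternatives chosen once the values were known. Overlap of groups describes the libraries of each named gene, and the share of all genes without overlap was not counted. The p-values measure the spread between these biological replicates of 1 line and its knockout, and the effect of read depth is counted only through them.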

Additional observations from a re-analysis of the deposited data

Results flagged for a closer look

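For 8 carriers the genotype difference itself differed between the untreated and the siNT experiments by edgeR's quasi-likelihood test in 1 fit of the 10 libraries. These are 7.69% of the carriers higher and 12.8% lower, against 10.3% and 13.9% of genes at 1 CPM or more, so the shares do not exceed the background. The total was 2 without parental 231 replicate 1 or replicate 2, and leaving out each of the 10 libraries in turn lost the call of SLC25A46 in 8 fits and of SLC25A23 and SLC25A30 in 6. The difference (231:TKO minus parental 231 under siNT, less the same value untreated, in log2) was higher under siNT for SLC25A45 at 1.5 (adjusted p = 0.00656), SLC25A35 at 1.0 (adjusted p = 0.0123) and SLC25A30 at 0.51 (adjusted p = 0.0486). It was lower under siNT for SLC25A4 at -0.99 (adjusted p = 0.00128), SLC25A26 at -0.76 (adjusted p = 0.0107), SLC25A23 at -0.71 (adjusted p = 0.022), SLC25A6 at -0.69 (adjusted p = 0.00976) and SLC25A46 at -0.47 (adjusted p = 0.0411). The experiments differ in siRNA treatment, read layout and annotation release, and these cannot be told apart. Dixon's check for a single library far from its group needs at least 4 libraries and was not made.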

How the results depend on the processing

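Across the alternatives run on named carriers, 1317 values kept their side of the threshold and, where called, their direction. Of the rest, 122 lost the call, 42 gained it and 1 reversed, which was SLC25A3 under siNT with regional offsets (0.11, adjusted p = 0.44). Signs were compared only where the main fit or the alternative made a call. Carriers called in neither could change sign, as SLC25A32 did in the untreated comparison (-0.20 to 0.39). Counts and medians (log2) that moved follow, and the cause was not tested where none is named.

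For untreated 231:TKO against parental 231, the 7 carriers called became 0 at an adjusted p of at most 0.01 and 4 with regional offsets, and ran from 0 to 18 as each library was left out (0 without either parental 231 library). These fits of 2 libraries against 1 assume that the lone library varies like the other group. For siMyc in 231:TKO, 17 carriers became 10 and the median of -0.12 became -0.0883 in 1 fit of 12 libraries. The count ran from 13 to 19 and the median from -0.114 to -0.071 with each library left out. For siMyc in parental 231, the count of 0 became 6 with DESeq2, 2 without a filter, 7 in 1 fit of 12 libraries, 13 without the pair and 19 with a factor for it, and ran from 0 to 2 (2 without parental 231+siMyc replicate 3, SLC25A33 being among them). Its median ran from -0.164 to -0.0697.

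For 231:TKO+siNT against parental 231+siNT, 23 carriers became 15 at an adjusted p of at most 0.01 and ran from 14 to 27. The median of -0.10 was -0.0845 with DESeq2 and with DESeq2 size factors, -0.113 without a filter, -0.0829 with more than 5 counts in every library and -0.0693 with regional offsets, and ran from -0.128 to -0.0619. Under siMyc, the genotype count of 21 ran from 16 to 25 and its median of -0.11 from -0.171 to -0.0834. For the difference of the genotype effects, 8 carriers became 13 with DESeq2 and 3 at an adjusted p of at most 0.01, and ran from 2 (without parental 231 replicate 1 or 2) to 14. Its median of -0.06 was -0.0284 with DESeq2, -0.0287 with its size factors and -0.0381 with more than 5 counts in every library, and ran from -0.0822 to -0.0318. The difference of the siMyc responses had 0 carriers called under every alternative, and its median ran from -0.04 to 0.03.

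Replicate numbers did not pair the samples: deviations of same-numbered libraries correlated at 0.02 in the untreated experiment, -0.15 to 0.27 in siRNA-treated 231:TKO and -0.81 to 0.63 in siRNA-treated parental 231, across genes. With the replicate block, 3 carriers passed in the untreated comparison, 18 for siMyc in 231:TKO, 0 in parental 231, 22 under siNT, 17 under siMyc, 0 for the difference of the siMyc responses and 6 for that of the genotype effects. The medians with the block were 0.03, -0.12, -0.11, -0.11, -0.11, 0.01 and -0.05.

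Carriers under 1 CPM were not read beyond the test.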
